A study of Mus musculus with 2 samples.

Results

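The mitochondrial respiratory chain was examined in 2 embryonic mouse retinas, a wild-type one and one of a Sox11-/- littermate, as the transcripts of the nuclear genes that encode subunits of complexes I to V. Members were taken by name: each probe set whose platform annotation gives exactly 1 gene symbol of the Nduf (a, b, c, s or v with a number), Sdh, Uqcr, Cox4 to Cox8, Cyc1 or Atp5 series. The rule found 82 genes measured by 165 probe sets, of 18193 genes with 1 symbol, and each gene took the probe set with the highest mean of both arrays. They divide into 35 genes of complex I, 4 of complex II, 9 of complex III, 17 of complex IV and 17 of complex V. A further 9 probe sets name a subunit together with another gene and were left out.

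Both embryos were of the C57BL/6 background at embryonic day 18, and the groups are wild-type retina and retina with loss of function of Sox11, a SoxC family transcription factor of differentiating neurons. RNA of 1 retina per genotype was hybridised to 1 Affymetrix array each, so no value has a replicate, no error between animals can be given and no test was possible. Which part of Sox11 is missing is not stated in the labels. The Sox11 probe set with the highest mean read 3205.7 and 252.4 on the wild-type and the knockout array. Sox11 probe sets past the filter did not share a sign, with log2 ratios from -3.64 to 1.08. The retina markers Pax6, Rax, Crx and others fixed for this check were past the filter in 8 of 8 measured genes, with log2 ratios from -0.26 to 0.87.

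The respiratory chain passes electrons from NADH through complex I, or from succinate through complex II, to ubiquinone, then through complex III, cytochrome c and complex IV to oxygen. Complexes I, III and IV pump protons across the inner mitochondrial membrane, and complex V, the ATP synthase, uses the gradient to make ATP. Most subunits are encoded in the nucleus and the remaining ones in mitochondrial DNA, and photoreceptors are among the cells of the mature retina richest in mitochondria. A log2 ratio below is the knockout value less the wild-type value after log2(intensity + 5), so that dim genes show less than their true change. To pass the low-value filter, a gene had to reach on 1 array or both an intensity of 18.6, the pooled median of all probe sets. Levels of single genes were not set against each other, since each probe set has its own response; intensity bands and list medians of intensity are given as array signal only.

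Respiratory chain transcripts read slightly lower on the knockout array in all 5 complexes. Of the 78 members past the filter, 67 (85.9%) were lower, against 52.1% of the 11553 genes past the filter. Their median log2 ratio was -0.12, a change in intensity of -8.3%, and the median of all genes was -0.01. The medians were -0.12 in complex I, -0.13 in complex II, -0.12 in complex III, -0.09 in complex IV and -0.14 in complex V. The differences were small: 2 members, Ndufs8 and Cox7c, were lower by 0.32 or more on the log2 scale, a size that 8.6% of all genes reached, and 2, Atp5md and Cox6b2, were higher by 0.32 or more, which 11.2% of all genes reached. No member differed by 1.5-fold, while 2.17% of all genes were lower and 3.81% higher by that much. The pair on the high side, an ATP synthase membrane subunit and a complex IV isoform, lay further from 0 than any lower member.

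**Figure D1:**
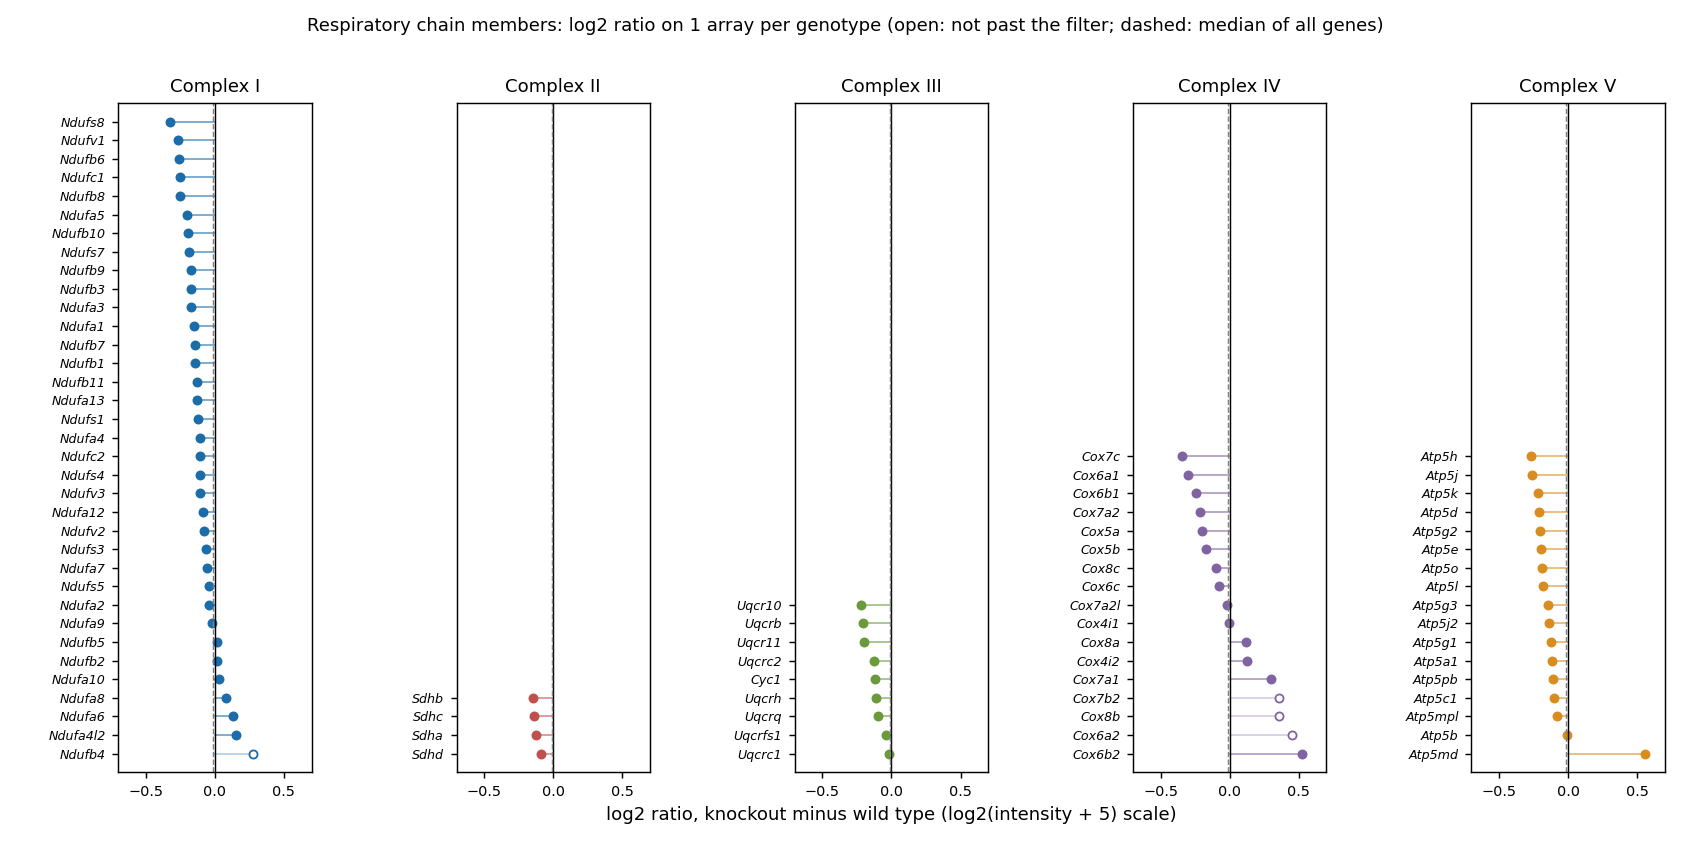
Log2 ratio (knockout minus wild type, on the x axis) of each member, with 1 panel per complex and genes ordered by ratio; filled points are members past the filter, open points are not, and the dashed line is the median of all genes. Most points lie between -0.34 and 0, and Atp5md at 0.56 and Cox6b2 at 0.52 stand at the other side.

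The tilt moved with signal level. Among other genes past the filter, the share lower on the knockout array was 48.5% at a mean intensity under 500, 66.6% from 500 to 1000, 74.9% from 1000 to 2000 and 78.6% from 2000 up. Members were lower in 7 of 11, 19 of 24, 28 of 30 and 13 of 13 in these bands. From 1000 up this makes 41 of 43 members, beside 77.1% of all genes of that level. Their medians were -0.10, -0.13, -0.12 and -0.17, beside 0.01, -0.07, -0.10 and -0.08 for the other genes. Measured from the median of all genes in the same of 20 level bands, the median of the members was -0.04, and 54 of 78 (69.2%) were negative. Across the 78 members, Spearman's rho between ratio and mean intensity was -0.23, as a description of points that share both arrays. The part of the array response to bright signal in the difference was not tested. Scaling moved the share of lower members from 85.9% either way: it was 73.1% after quantile normalization (56.3% of all genes) and 75.6% after loess (55.8% of all genes), but 88.5% after median centring (57.9% of all genes). The medians of all 5 complexes stayed negative under these 3 scalings.

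**Figure D2:**
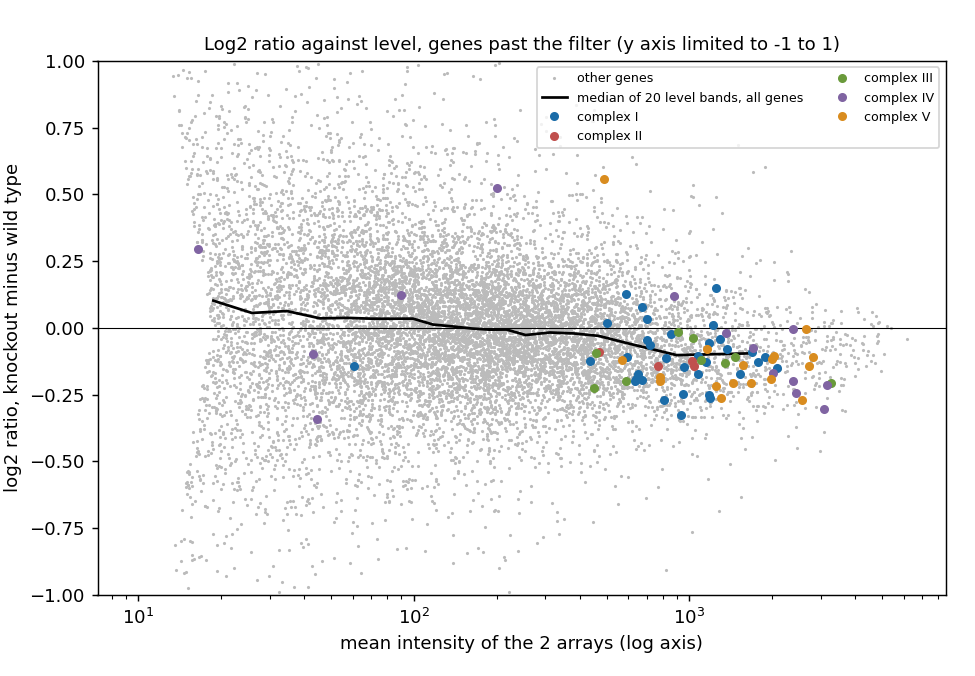
Log2 ratio (knockout minus wild type, y axis, drawn between -1 and 1) against the mean intensity of the arrays (log axis) for genes past the filter; grey points are other genes, coloured points are members by complex, and the black line is the median in 20 level bands. The line falls below 0 where most members lie, and the members scatter around and below it.

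The probe sets of a member give the only yardstick for a single gene, and none for a median over many. They share the same RNA and arrays, so their spread leaves out error between arrays. Log2 ratios of probe sets of the same member had a pooled SD of 0.17, beside 0.26 for probe sets of the same gene over all genes. Of the 78 members, 47 had a ratio within 0.17 of 0, 28 were lower by more and 3 were higher by more. The share of all genes beyond 0.17 was not counted, so these counts have no background. Of 142 member probe sets past the filter, 115 (81%) were lower, with a median of -0.12. In 40 members with several such probe sets, all were lower in 23, all higher in 1 and the signs differed in 16. Probe sets were not counted this way over all genes. By the brightest probe set, 52.1% of all genes past the filter were lower, and 77.1% of those with a mean intensity of 1000 or more. A single probe set measured 34 of the 82 members.

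Promoter sequences are shown for the members furthest from 0 in complexes I, IV and V whose arrays were both well above the filter, to set their upstream letters beside a set of values that mostly lean one way. They were chosen after their values were seen. The sequences are from RefSeq (GRCm38.p6), 250 bases before the start of the gene, printed 5′ to 3′ on the strand of the gene. Capitals mark letters of NRF1 (GCGCANGCG), ETS family (CGGAAG) or YY1 (ATGGCGGC) motifs on either strand, factors known as regulators of many respiratory chain genes. The promoters of Atp5md and Cox6b2, the 2 highest members, come first, then those of Ndufs8, Cox6a1 and Atp5h, which were lower.
Atp5md, chr19:47090648-47090897, minus strand: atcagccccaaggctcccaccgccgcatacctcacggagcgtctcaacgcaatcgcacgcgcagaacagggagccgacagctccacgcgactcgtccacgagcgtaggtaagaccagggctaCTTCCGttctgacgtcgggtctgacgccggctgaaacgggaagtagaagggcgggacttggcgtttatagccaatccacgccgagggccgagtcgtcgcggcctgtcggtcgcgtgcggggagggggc
Cox6b2, chr7:4753095-4753344, minus strand: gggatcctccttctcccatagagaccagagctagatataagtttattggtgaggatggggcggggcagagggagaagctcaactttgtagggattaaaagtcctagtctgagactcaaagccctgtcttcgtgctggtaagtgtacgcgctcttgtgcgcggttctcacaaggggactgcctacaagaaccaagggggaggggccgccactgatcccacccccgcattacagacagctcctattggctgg
Ndufs8, chr19:3912775-3913024, minus strand: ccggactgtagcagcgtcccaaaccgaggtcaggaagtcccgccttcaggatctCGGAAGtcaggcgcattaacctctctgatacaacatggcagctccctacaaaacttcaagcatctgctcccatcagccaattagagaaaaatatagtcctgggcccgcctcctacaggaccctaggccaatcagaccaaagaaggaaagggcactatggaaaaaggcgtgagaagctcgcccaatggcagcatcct
Cox6a1, chr5:115348959-115349208, minus strand: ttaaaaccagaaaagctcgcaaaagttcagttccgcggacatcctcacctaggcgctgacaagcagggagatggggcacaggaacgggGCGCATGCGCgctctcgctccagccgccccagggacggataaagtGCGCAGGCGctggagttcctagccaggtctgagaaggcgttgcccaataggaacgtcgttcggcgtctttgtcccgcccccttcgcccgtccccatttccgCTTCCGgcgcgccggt
Atp5h, chr11:115419920-115420169, minus strand: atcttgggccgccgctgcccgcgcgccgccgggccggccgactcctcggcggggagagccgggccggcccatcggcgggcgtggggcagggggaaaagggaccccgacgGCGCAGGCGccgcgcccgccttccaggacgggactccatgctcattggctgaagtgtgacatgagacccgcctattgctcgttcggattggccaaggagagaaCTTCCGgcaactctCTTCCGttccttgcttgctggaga

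The Cox6a1 window held the NRF1 letters from 162 bases before the start, where matches on both strands overlap, and again from 117 bases before it, and an ETS match 16 bases before it. The Atp5h window held an NRF1 match from 141 bases before the start and ETS matches from 38 and 24 bases before it. A single ETS match was found in the Ndufs8 window, 196 bases before the start, and in the Atp5md window, 128 bases before it. The Cox6b2 window held none of these letters. Over the 66 members with a promoter in the table, 18.2% held the NRF1 letters, against 5.86% of 27025 genes and 13.2% of the other genes past the filter. The ETS letters were in 33.3%, 15.3% and 29.1%, and the YY1 letters in 1.52%, 1.19% and 2.34%. The 11 members past the filter with NRF1 letters had a median ratio of -0.18 and the 52 without had -0.13. For ETS letters the medians were -0.17 over 22 members and -0.13 over 41. Members with and without letters were not matched for complex or signal level, and no test separates these medians. A match is a description of letters, not of binding.

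Complex I, the NADH dehydrogenase, had 34 of 35 members past the filter, 28 of them lower, between -0.33 and 0.15. Its core subunits carry the flavin and iron-sulfur clusters. The flavin-binding subunit Ndufv1 read 885.7 and 733.8 on the wild-type and the knockout array, a log2 ratio of -0.27 (further pairs are in this order), with its 3 probe sets all lower. Ndufv2, an iron-sulfur subunit next to it, read 1409.2 and 1334.1 (log2 ratio -0.08), and Ndufs1, which holds several clusters, read 453.9 and 416.1 (-0.12). All 3 subunits where electrons enter were therefore lower, by unequal amounts, and Ndufv2 had other probe sets down to -0.44. By its brightest probe set Ndufv2 was level after quantile normalization and loess, at -0.0095 and -0.0093.

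The subunits that lead electrons on to ubiquinone were lower too. Ndufs8, an iron-sulfur subunit, read 1037.5 and 826.9, a log2 ratio of -0.33 and the lowest of complex I. Its 6 probe sets did not share a sign: 5 were lower, down to -0.38, and another read 776 and 861.1, a log2 ratio of 0.15. Ndufs7, which carries the last cluster of the chain, read 682 and 597.1 (-0.19), and Ndufs3 read 736.4 and 704.6 (-0.06). The 3 measured subunits of this core had a median of -0.19, and all were lower. Ndufs3 was near 0 after quantile normalization and loess, at -0.02 and -0.01.

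Accessory subunits of complex I, which surround the core, ranged from -0.26 to 0.15. The Ndufb genes, most of which belong to the far end of the membrane arm, were lower in 8 of 10, with a median of -0.16. Ndufb6 was the lowest of them, at 1291 and 1074.6 (-0.26), followed by Ndufb8 at 1026.4 and 862.6 (-0.25). Ndufc1, a small membrane subunit, read 1276 and 1070.4 (-0.25). Ndufb2 and Ndufb5 were level, with ratios of 0.02 and 0.01, and turned sign under median centring. Their other probe sets were lower, at -0.15 and -0.18 for Ndufb2 and -0.14 for Ndufb5. The Ndufb4 probe set with 1 symbol read 6.8 and 9.3, below the filter, and gives no level.

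The Ndufa genes were the most mixed, with 9 of 13 lower and a median of -0.06. Ndufa5, a subunit of the peripheral arm, read 677.5 and 589.2 (-0.20). Ndufa6 read 563.2 and 615.9 (0.13), and Ndufa8 read 656.7 and 693.9 (0.08). Ndufa4l2, a paralog of Ndufa4 induced in hypoxia, was the highest of the complex I names at 1181.3 and 1312.3 (0.15), and Ndufa10 was at 0.03. These 4 kept their sign under the 3 scalings. Ndufa4 itself, placed in complex IV by structure, read 852.1 and 788.6 (-0.11). Of the 67 lower members in all complexes, 56 stayed lower under the 3 scalings, and 8 of the 11 higher ones stayed higher.

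For 3 members of complex I the probe sets past the filter differed in sign by over 0.5. Besides Ndufs8, these were Ndufa12 and Ndufa7, both accessory subunits. Ndufa12 gave -0.09 and -0.15 with its 2 brightest probe sets and 0.37 with another, from 800.9 to 1039.3. Ndufa7 gave -0.06 with the brightest, -0.30 with another and 0.35 with a dim one, which read 125.7 and 161.4. The direction of these genes depends on the probe set, and the brightest probe sets of Ndufa12 and Ndufa7 also turned sign after quantile normalization, to 0.0022 and 0.02. The X-linked members Ndufa1 and Ndufb11 read 2192.7 and 1973 (-0.15) and 1850.3 and 1693.8 (-0.13), while the median of the 382 X-linked genes past the filter was 0.003. Those genes had a median wild-type intensity of 170 and so do not match Ndufa1 and Ndufb11 in level. Sex-linked transcripts differed along with genotype: Xist, expressed from the inactive X chromosome, read 12.3 and 922.7, and the Y-linked Eif2s3y and Kdm5d read 214 and 4.7, and 130.4 and 3.5. Sex and genotype cannot be told apart in any value here.

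Complex II, succinate dehydrogenase, also a TCA cycle enzyme, was lower in 4 of 4 genes within a narrow range. The flavoprotein Sdha read 1064.7 and 975.8 (-0.13), and the iron-sulfur subunit Sdhb read 1091.7 and 987.2 (-0.14). The membrane anchors Sdhc and Sdhd read 807.5 and 731.1 (-0.14) and 483.5 and 454 (-0.09). The anchors differed more between probe sets than between genes: a second Sdhc probe set went from 289.7 to 174.3 (-0.72), and a second Sdhd probe set from 92.6 to 113.6 (0.28).

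Complex III, the cytochrome bc1 complex, was lower in 9 of 9 genes, between -0.22 and -0.01. Its redox subunits, the Rieske iron-sulfur protein Uqcrfs1 and cytochrome c1 (Cyc1), read 1046.3 and 1019.8 (-0.04) and 1151.1 and 1059.7 (-0.12). The core proteins Uqcrc1 and Uqcrc2 read 910.8 and 901.6 (-0.01) and 1403.5 and 1282 (-0.13). Among the smaller subunits, Uqcrb read 3496.7 and 3032.8 (-0.21), Uqcr11 read 627.9 and 546.7 (-0.20) and Uqcr10 read 484 and 413.8 (-0.22), while Uqcrh and Uqcrq were at -0.11 and -0.09. The second Uqcrb probe set gave 0.10. The 3 probe sets of Uqcr10 ranged down to -0.87, in a dim one that read 44.7 and 22.1. Uqcrfs1 and Uqcrc1 were near 0 and turned positive after quantile normalization and loess, at 0.04 and 0.04 after quantile normalization. Cytochrome c (Cycs), the carrier from complex III to complex IV and not a member, read 1547.7 and 1557.8 (0.01). Other Cycs probe sets ranged down to -0.18.

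**Figure D3:**
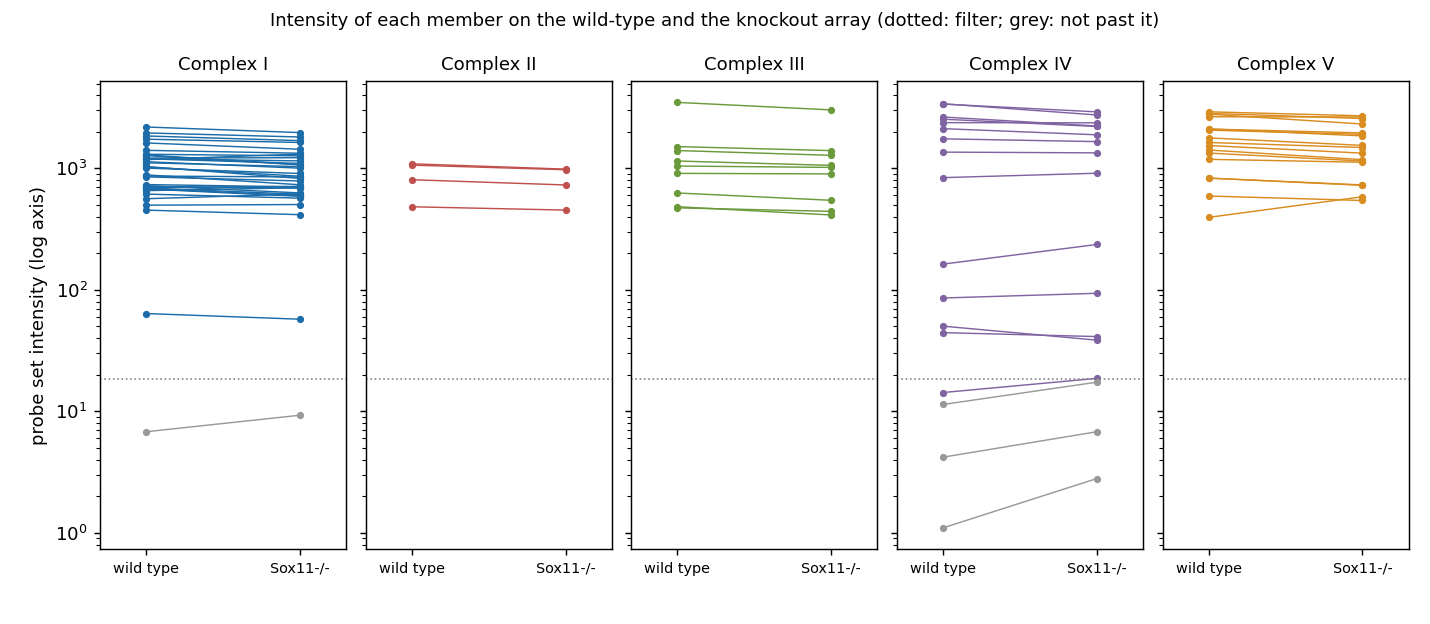
Probe set intensity (log axis) of each member on the wild-type and the knockout array, 1 line per gene and 1 panel per complex; the dotted line is the filter of 18.6 and grey lines are members that did not pass it. Most lines slope slightly downward, and Atp5md, from 395.6 to 584.5, and Cox6b2, from 163.1 to 236.6, slope upward.

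Complex IV, cytochrome c oxidase, had values on both sides of 0. Of its 17 members, 14 were past the filter and 10 were lower, between -0.34 and 0.52. The largest difference at a high signal was in Cox6a1, the broadly expressed form of subunit 6a, at 3406.2 and 2756.4 (-0.30), although its second probe set gave 0.05. Cox6b1 read 2650.8 and 2234.9 (-0.25), Cox7a2 read 3386.5 and 2922 (-0.21), and the matrix-side subunits Cox5a and Cox5b read 2542.9 and 2214.6 (-0.20) and 2126.5 and 1891.6 (-0.17). A further Cox5b probe set went the other way, from 933.7 to 1081.7 (0.21). Cox4i1, the broad form of subunit 4, was level at 2381.6 and 2374.4 (-0.0044), and Cox8a was higher at 840.1 and 913 (0.12). Cox7c had the lowest ratio, -0.34, from a dim probe set that read 50.3 and 38.6, and its other probe set gave -0.07. Cox7a2l, which helps join complexes III and IV and is no fixed subunit of complex IV, read 1362.5 and 1343.4 (-0.02). Cox4i1 and Cox7a2l turned positive after quantile normalization and loess, at 0.09 and 0.05 after the former.

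Isoforms known from restricted tissues were mixed: of 7, 3 were higher, 1 was lower and 3 did not pass the filter. Cox6b2, best known from testis, read 163.1 and 236.6, a log2 ratio of 0.52 from its single probe set, and lay between 0.49 and 0.51 under the 3 scalings. Cox4i2, an oxygen-responsive form known from lung, read 85.8 and 93.8 (0.12), and Cox8c read 44.5 and 41.3 (-0.10). The muscle form Cox7a1 read 14.3 and 18.7, and so passed the filter only by its knockout value. The muscle forms Cox6a2 (11.4 and 17.4) and Cox8b (4.2 and 6.8) and the testis form Cox7b2 (1.1 and 2.8) did not pass it. Of 14 skeletal muscle markers, 3 passed the filter, and their summed intensity over all 14 was 174 on the wild-type array and 172.9 on the other. The level sum rested on Tnni1, which read 33.4 and 2 and passed only by its wild-type value. The other markers past the filter, Acta1 at 34.5 and 41.5 and Mylpf at 37.1 and 40.5, were higher. Pairs of a broad and a restricted form past the filter differed in both directions. Cox6b1 was at -0.25 beside Cox6b2 at 0.52, and Cox4i1 at -0.0044 beside Cox4i2 at 0.12. The order of Cox4i1 and Cox4i2 turned with scaling: they were at 0.09 and 0.06 after quantile normalization and at 0.08 and 0.06 after loess. Cox7a2 was at -0.21 beside Cox7a1 at 0.30, whose direction was fixed by the filter and whose ratio was -0.0044 after loess. Cox8a at 0.12 beside Cox8c at -0.10 ran the opposite way. Cox6a2 and Cox8b were below the filter and were not paired.

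Complex V, the ATP synthase, was lower in 16 of 17 genes, between -0.27 and 0.56. In its catalytic F1 head, Atp5a1 (subunit alpha) read 2067.4 and 1908.2 (-0.12), Atp5b (the catalytic beta subunit) was level at 2662.5 and 2653.2 (-0.005), and Atp5c1 (gamma, the central shaft) read 2109.3 and 1960.9 (-0.10). The delta and epsilon subunits Atp5d and Atp5e read 1543.9 and 1335.9 (-0.21) and 833 and 725.7 (-0.20), and the second Atp5d probe set gave 0.07. Atp5b turned to 0.07 after quantile normalization and 0.08 after loess. The 5 head genes thus ranged from level to about as low as the lowest complex III members.

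The peripheral stalk, which holds the head still while the rotor turns, had a median of -0.23 over 4 genes. Atp5h (subunit d) read 2798.4 and 2320.6 (-0.27), the lowest ratio of complex V, with both probe sets lower. Atp5j (coupling factor 6) read 1418.4 and 1180.7 (-0.26), Atp5o (OSCP) read 2115.4 and 1853.7 (-0.19), and Atp5pb (subunit b) read 2925.7 and 2709.9 (-0.11). The second Atp5o probe set gave 0.02.

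The rotor ring in the membrane is built from identical c subunits, made as mature protein from the genes Atp5g1, Atp5g2 and Atp5g3. They read 592.9 and 544.6 (-0.12), 1784.9 and 1547.3 (-0.21), and 2841.3 and 2575.8 (-0.14), so all of the c genes were lower by similar amounts. Among the small membrane subunits, Atp5k (subunit e) read 1338 and 1150.6 (-0.22) and Atp5l (subunit g) read 831.9 and 731.7 (-0.18).

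Atp5md, a small subunit that helps dimers of the synthase hold together, stood apart from the rest of complex V. It read 395.6 and 584.5, a log2 ratio of 0.56 and a 1.48-fold difference in intensity, from a single probe set. Its ratio was between 0.53 and 0.58 under the 3 scalings. Atp5mpl, another small subunit, read 1188.5 and 1124.3 (-0.08).

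Other mitochondrial gene lists had medians from -0.09 to 0.003. The 76 mitochondrial ribosomal proteins, which translate the subunits encoded in mitochondrial DNA, had a median of 0.003 with 36 lower. The 21 import genes had a median of 0.001, and the 39 assembly factors, which build the complexes, -0.02 with 22 lower. Their array signal differed along with the list: the median wild-type intensity was 269 for the ribosomal list, 161.4 for the assembly factors and 1124 for the members. Cytosolic ribosomal proteins, a set of bright probe sets, had a median of -0.03 over 43 genes with 24 lower. Of these, 33 had a mean intensity of 2000 or more, with 22 lower and a median of -0.03, beside -0.17 for the 13 members in that band. The band has no upper bound and does not match the groups in level. On the wild-type array the ribosomal list reached 6256.6 (Rps29) and the members 3496.7 (Uqcrb). No test separates these values, which come from the same arrays.

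**Figure D4:**
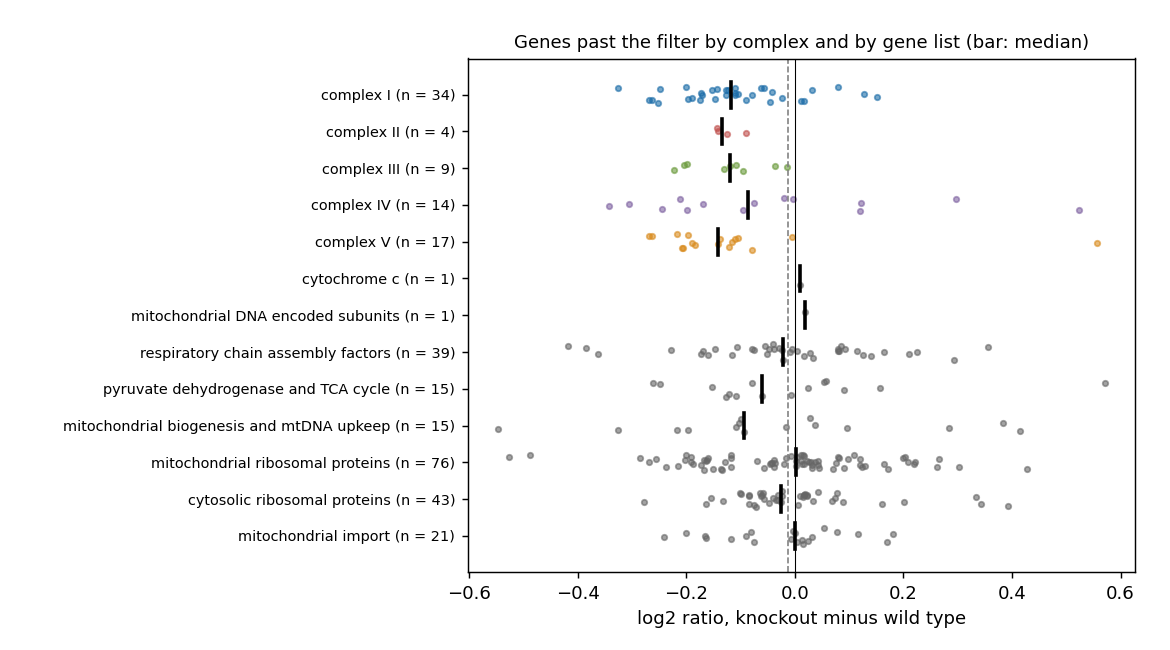
Log2 ratio (knockout minus wild type, x axis) of each gene past the filter in complexes I to V and in the other gene lists, with the number of genes in brackets; black bars are medians and the dashed line is the median of all genes. The medians of the 5 complexes lie from -0.14 to -0.09, those of the assembly, import and ribosomal lists from -0.03 to 0.003, and those of the biogenesis and TCA cycle lists at -0.09 and -0.06.

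Enzymes that feed the chain were mixed. Pyruvate dehydrogenase and TCA cycle genes had a median of -0.06 over 15 genes, with 9 lower. Citrate synthase (Cs), which starts the cycle, read 1315.4 and 1095.9 (-0.26) and malate dehydrogenase Mdh2 read 2382.6 and 2004.7 (-0.25). The Cs probe sets past the filter did not share a sign and ranged from -0.26 to 0.47. Suclg2, the GTP-specific subunit of succinyl-CoA ligase, read 365.2 and 544.8 (0.57). By the brightest probe set, Suclg2 alone of the 15 reached 0.32, and none reached -0.32.

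Regulators of mitochondrial biogenesis and genes of mitochondrial DNA upkeep had a median of -0.09 over 15 genes, with 9 lower. The coactivator Ppargc1a read 40 and 55 (0.41) and its relative Ppargc1b 19.1 and 11.5 (-0.55), both dim. Other Ppargc1a probe sets past the filter ranged down to -0.24. Gabpa, an ETS family factor, read 456.8 and 597.3 (0.38), Nrf1 read 104.9 and 112.4 (0.10), and Tfam, which packages mitochondrial DNA, read 502.8 and 516.2 (0.04). The Nrf1 probe sets past the filter ranged from -0.07 to 0.56. Ssbp1, the single-strand binding protein of mitochondrial DNA, read 1529.8 and 1219.8 (-0.33), and its probe sets ranged from -0.60 to 0.20. Of the subunits encoded in mitochondrial DNA, 1 was measured: ND5 read 2440.9 and 2472.8 (0.02).

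Among assembly factors, the lowest was Cox19, a copper-handling factor of complex IV, at 304.7 and 226.8 (-0.42), and the highest was Cox15, which makes its heme, at 143.9 and 185.5 (0.36). Mrpl11 was the lowest mitochondrial ribosomal gene at 586.1 and 405.3 (-0.53) and Mrps15 the highest at 196.4 and 266 (0.43). Another Mrpl11 probe set gave 0.25, and another Cox15 probe set gave -0.0031.

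Marker transcripts of several cell types also differed between the arrays, and fewer cells of a type cannot be told apart from less RNA per cell in whole tissue. Summed over 6 measured rod markers, intensity was 947 on the wild-type array and 359.2 on the other, and all 4 past the filter were lower. Summed periocular mesenchyme markers read 88.2 and 669.5, with 8 of 8 past the filter higher, and macrophage or microglia markers 344.2 and 752, with 9 of 9 higher. A marker below the filter on 1 array passes only through the other, so its direction in these counts was fixed by the filter. This held for most mesenchyme markers, such as Dcn at 8.8 and 133.3. It also held for some markers of other lists, such as Mpeg1 at 7.3 and 51.1. Among the 4 rod markers past the filter it held for Pde6b, at 36.5 and 10.8, and Cngb1, at 22.9 and 10.4. Lens markers read 398.6 and 705.6, with 6 of 8 higher, and pigment epithelium markers 567.1 and 563.1, with 5 of 7 higher. The level pigment epithelium sum rested on its brightest marker, Rlbp1, which read 296.5 and 147. None of the 4 measured blood markers passed the filter. The part of these differences in the respiratory chain values was not tested.

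The size of the tilt changed with the choice of probe set and scaling, and its side did not under the settings run. The median of all members lay between -0.15 and -0.04 over all settings, and complex V had the lowest median of the 5 in the reported setting and after each of the 3 scalings. When each gene took the median of its probe sets, complex II was lower, at -0.13 beside -0.12 for complex V. The order of the complexes thus changed between settings, and no test of the difference between complexes was possible.

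**Figure D5:**
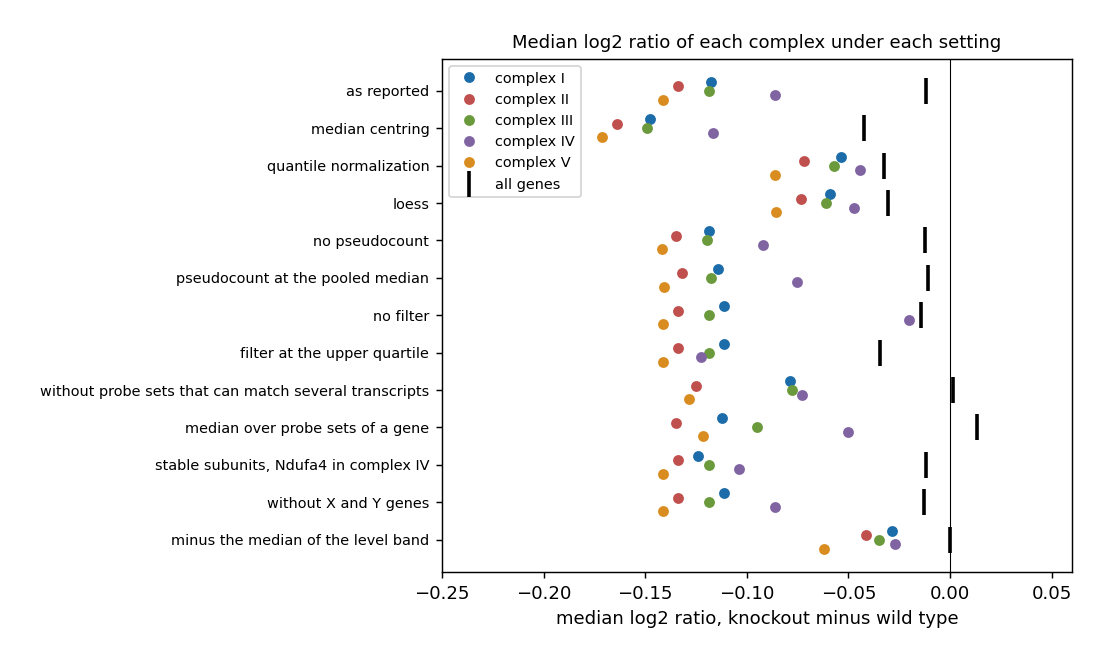
Median log2 ratio (knockout minus wild type, x axis) of complexes I to V under each setting (rows), with black ticks for the median of all genes. All points lie below 0; they move closest to 0 after subtraction of the median of the level band, where complex V is at -0.06, and complex IV is at -0.02 without the filter.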

How the data were processed

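Total RNA of 1 retina per genotype was extracted with a column kit, amplified, transcribed into biotin-labelled cRNA and hybridised, per the labels' protocols. The deposited intensities, 1 per probe set and array, are linear and were scaled by the authors; with what software is not given in the sources used here. On each array, the mean without the top and bottom 2% was 100.0, which was read from the values. Array medians were 17.6 and 19.7. The number of arrays, 1 per genotype, limits the precision.

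The 64 control probe sets were left out of 45101. Of 45037, GEO's platform annotation gave 1 symbol for 34945, several for 932 and none for 9160. Intensities were turned to log2(intensity + 5), 5 being the pooled 25th percentile rounded, with no further scaling. Python 3.11.15, pandas 2.3.3 and statsmodels 0.14.6 (loess, span 0.3) were used. The procedure was tested on simulated data with shifts larger than those of the members and no tilt with signal level. All members could be named, with values for core subunits, isoforms, the c ring, X-linked genes, the 3 highest and 3 lowest per complex and members with discordant probe sets. The members and lists were chosen with earlier results of these data known. Promoters matched 66 of 82 members by Entrez number.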

Additional observations from a re-analysis of the deposited data

How the results depend on the processing

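Without replicates there is no spread against which a move of a median can be judged, so ranges are given. The median of all members, -0.12 as reported, was -0.07 after quantile normalization and loess and -0.04 after the subtraction of level bands, which was chosen after seeing the data. Ranges over the settings were -0.15 to -0.03 for complex I, -0.16 to -0.04 for complex II, -0.15 to -0.03 for complex III, -0.12 to -0.02 for complex IV and -0.17 to -0.06 for complex V. The number of lower members was 43 of 56 (76.8%) when probe sets with an s, x or a suffix, which may match more than 1 transcript, were left out, where 49.5% of all genes were lower, and was within 1.5 times of 67 otherwise. Members lower by 0.32 or more, 2 as reported, numbered 1 after quantile normalization, 1 after loess, 1 with the filter at the upper quartile of 109.4, 1 without those suffixes and 0 with the pseudocount at the pooled median. Those higher by 0.32 or more numbered 5 without the filter, since dim isoforms then counted. No paired analysis was possible because each genotype has 1 array, and no replicate could be left out.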
